A study of Homo sapiens with 6 samples.

Results

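This account describes 35 genes of fatty acid oxidation and the peroxisome among 19775 genes read by arrays. The cells are labelled HepG2, which is an established human liver cancer line. The genes were listed by name, with earlier results of these data known, and the rule itself uses no measured value: enzymes that break down fatty acids in mitochondria and peroxisomes, and peroxins, the proteins that build peroxisomes. One group of 3 arrays held RNA of cells transfected with a negative control siRNA, and the other group of 3 held RNA of cells transfected with an siRNA against RNF43, a membrane ubiquitin ligase that restrains Wnt signalling. RNA was taken 48 h after transfection. Both groups went through the same lipid transfection, no untransfected cells were compared, and each group had a single siRNA. The labels number the arrays of each group as biological replicates without naming separate cultures, so p-values here rest only on array-to-array spread, which may be technical.

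The siRNAs set the groups apart, and their antisense strands, which guide the cleavage of the target, are shown as given in the labels. Capitals mark the seed, bases 2 to 8.
RNF43 siRNA antisense strand: aUAAUAGCuuucuguucugtt
negative control siRNA antisense strand: aCGUGACAcguucggagaatt

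Fatty acids enter mitochondria as carnitine esters and are shortened there in repeated rounds of dehydrogenation, hydration, oxidation and thiolysis. The electrons of the dehydrogenases pass through the electron transfer flavoprotein to the respiratory chain. Peroxisomes shorten very long and branched chains and break down the hydrogen peroxide that this makes. In the liver many of these genes are known targets of the nuclear receptor PPARA.

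Several facts of the whole set of arrays bear on the values. RNF43, read by 1 probe set, was 1.56-fold higher on the arrays labelled RNF43 siRNA (log2 difference 0.64, SE 0.14, limma adjusted p = 0.0098; exact permutation p = 0.1, the smallest that 3 against 3 arrays allow), and with both arrays numbered 3 left out the difference was 0.48 and did not pass (adjusted p = 0.0534). Every direction given here is therefore that of the arrays labelled RNF43 siRNA and is tied to no measured loss of RNF43 mRNA. The labelled cell type went against its markers. Of 12 hepatocyte marker genes with a probe set, 11 lay below the filter on low values, among them ALB, APOA1, TTR and FGB, as did 30 of the 31 probe sets of these markers, and only AFP was above it. Of 9 fibroblast and stellate cell markers 5 were above the filter, while COL1A2, PDGFRA, PDGFRB and POSTN lay below it. Of the 5, 3 fell (COL3A1, DCN and ACTA2), or 60%, beside 11.1% of all genes tested. The summed linear signal of the 9 ran from 14608.5 to 14915.1 on the control arrays and from 11628 to 12827.5 on the others, and none was at 0 on any array. That sum includes the bright gene LUM, which did not pass (log2 difference -0.18, adjusted p = 0.0926), and so does not summarise the 3 that fell. For the hepatocyte markers the sum ran from 415.4 to 501.7 and from 345.7 to 381.9. The part of either shift in the results on fatty acid oxidation was not tested. Of 7 macrophage and leukocyte markers 0 passed the filter, and of 6 endothelial markers only PECAM1 did. The 2 arrays numbered 3 had the lowest array weights (0.534 and 0.574, against 0.96 to 1.63 for the others), so results that rest on them are also given without them.

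Of the 35 genes, 34 had a probe set that named a single gene, and PEX13 was not matched. ACADL, the long-chain acyl-CoA dehydrogenase, lay below the filter (log2 signals from 1.94 to 4.58), which left 33 genes in the test. ETFB and PEX19 fell and ACADM and PEX7 rose on the arrays labelled RNF43 siRNA (limma, adjusted p under 0.05). These 4 calls are 12.1% of the 33 genes, beside 22.6% of all 11853 genes tested, or 2 higher (11.5% of all genes) and 2 lower (11.1%). At an unadjusted p under 0.05 there were 7. The share of all genes at that unadjusted threshold was not computed, so such counts, here and below, are not read as a result. At a limma adjusted p under 0.1 the genes called were still 4, beside 29.6% of all genes. The groups did not overlap for 12 of the 33 genes, or 36.4%, against 38.9% of all genes. The median log2 difference was -0.08, beside a median of -0.0028 over all genes tested. In RNA of whole cultures, fewer cells of a type and less RNA per cell cannot be told apart.

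**Figure D1:**
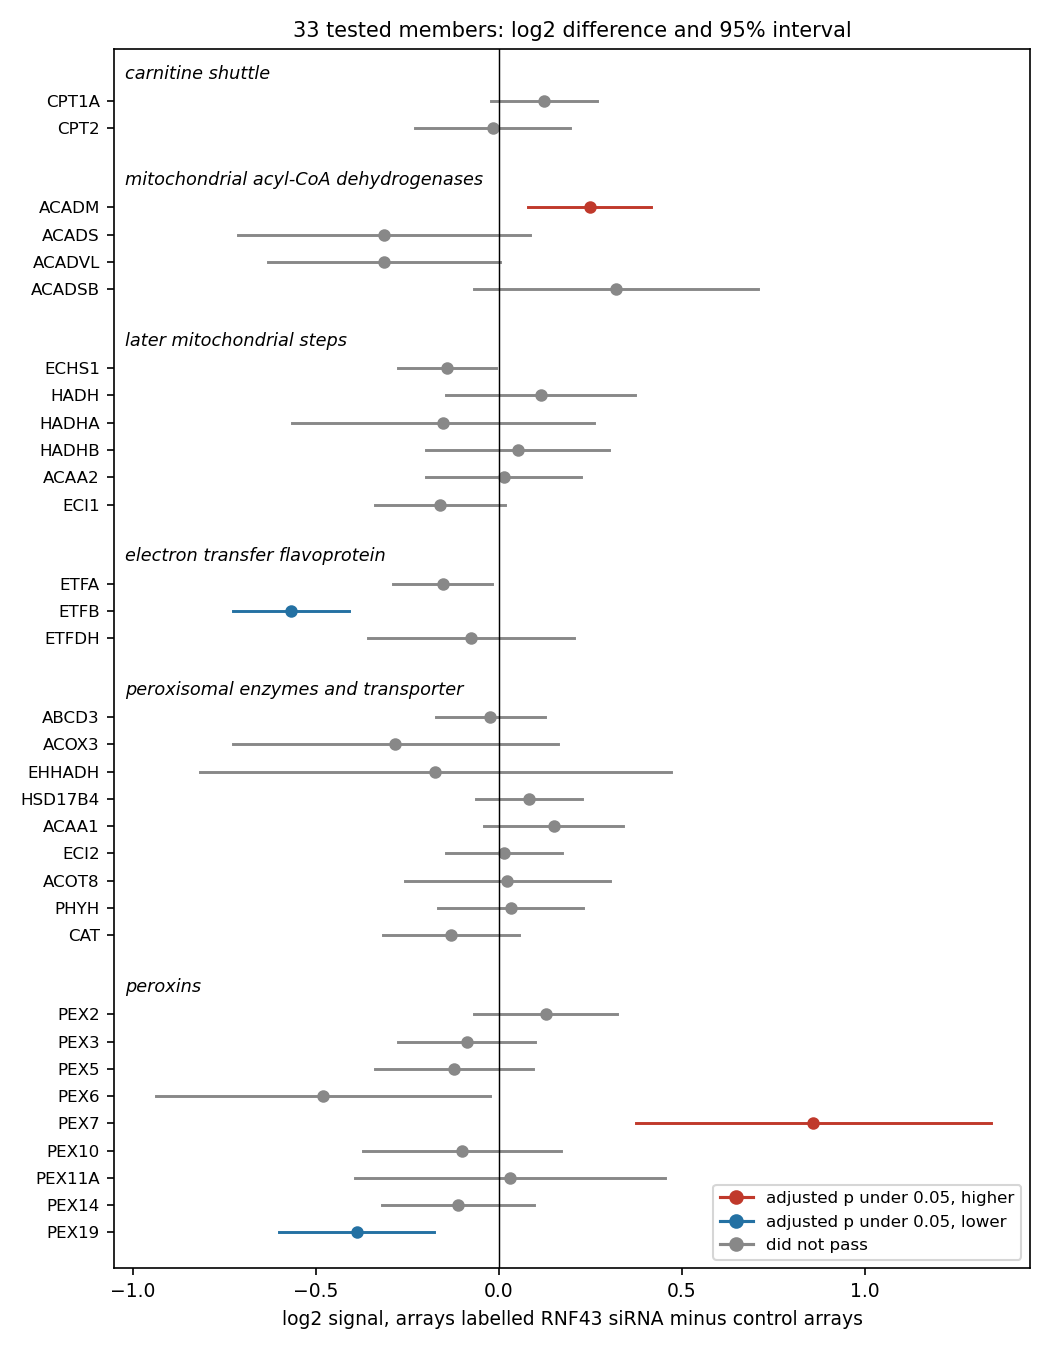
Log2 difference between the arrays labelled RNF43 siRNA and the control arrays (points) with its 95% confidence interval (lines) for the 33 tested genes, in order of role, from limma's fit over 3 arrays per group. The intervals of ETFB and PEX19 (blue) lie below 0 and those of ACADM and PEX7 (red) above it, and among the genes that did not pass (grey) the unadjusted intervals of ETFA, ECHS1 and PEX6 also lie below 0.

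Neither carnitine palmitoyltransferase among the 35 genes passed on its brightest probe set. CPT1A, which loads long-chain fatty acids onto carnitine at the outer mitochondrial membrane and is the main control point of entry, read 11.32, 11.29 and 11.32 on the control arrays and 11.48, 11.43 and 11.40 on the others. All 3 of the second group lay above all 3 controls, by a log2 difference of 0.12 (SE 0.07, adjusted p = 0.21). The other tested probe sets of CPT1A disagreed in sign, and none passed. One had a log2 difference of 0.62 with no overlap (limma adjusted p = 0.0974 over probe sets). The rest had overlapping groups, with log2 differences of -0.08 and -0.025. CPT2, which returns the fatty acid to coenzyme A on the inner side, read 10.55, 10.46 and 10.55 against 10.30, 10.62 and 10.60 on its brightest probe set. Those groups overlapped, and the log2 difference was -0.02 with a 95% interval of -0.23 to 0.20. The other probe set of CPT2 fell (adjusted p = 0.026 over probe sets), as did SLC25A20, the carrier of the shuttle that is not among the 35 (adjusted p = 0.00154). Of the 2 genes 0 passed in limma, beside 22.6% of all genes, and 0 had an unadjusted p under 0.05.

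Of 4 tested acyl-CoA dehydrogenases, which take the first step of each round, 1 rose, or 25% beside 22.6% of all genes. ACADM, the medium-chain enzyme, read 11.85, 11.93 and 11.97 on the control arrays and 12.03, 12.19 and 12.26 on the arrays labelled RNF43 siRNA. The groups did not overlap, and the log2 difference of 0.25 (SE 0.08) was a rise of 1.19-fold, with an adjusted p of 0.0398 in limma. This call was close to the threshold. It was lost without control siRNA replicate 1 (adjusted p = 0.148) or 2 (0.0991), without RNF43 siRNA replicate 2 (0.125) or 3 (0.107), when both arrays numbered 3 were left out (0.0508), and in 3 other alternatives, within 0.00321 to 0.148 over 18 alternatives.

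The other dehydrogenases did not pass. ACADS, for short chains, read 7.67, 7.69 and 7.58 against 7.01, 7.51 and 7.49, with no overlap and a log2 difference of -0.31 (SE 0.18) that became -0.15 without RNF43 siRNA replicate 1. ACADVL, for very long chains, read 11.48, 11.47 and 11.08 against 10.91, 11.34 and 10.84. Control replicate 3 lay below the highest array of the other group, and the log2 difference was -0.31 (SE 0.14, limma adjusted p = 0.147). ACADVL passed with the replicate block, without control siRNA replicate 3 (log2 difference -0.45, 0.0329) and without RNF43 siRNA replicate 2 (0.00659 to 0.356 over the alternatives). Without both arrays numbered 3 its log2 difference was -0.35 and did not pass (limma adjusted p = 0.0559). ACADSB, which works on short branched chains from isoleucine, had overlapping groups and a log2 difference of 0.32 (SE 0.17). This became 0.16 without control siRNA replicate 1 and 0.49 without both arrays numbered 3. The other probe set of ACADSB had a log2 difference of 0.41 with no overlap and did not pass (limma adjusted p = 0.127 over probe sets).

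None of the 6 genes of the later mitochondrial steps passed in limma, beside 22.6% of all genes, and 1 (ECHS1) had an unadjusted p under 0.05. Their log2 differences ran from -0.16 to 0.11. ECHS1, the enoyl-CoA hydratase, read 12.69, 12.76 and 12.71 against 12.62, 12.55 and 12.56. The groups were apart by a log2 difference of -0.14 (SE 0.06, adjusted p = 0.124). ECI1, an isomerase for unsaturated chains, read 10.94, 11.07 and 10.84 against 10.81, 10.83 and 10.73, which left the groups just apart (log2 difference -0.16, adjusted p = 0.185). HADH and ACAA2, the short-chain 3-hydroxyacyl-CoA dehydrogenase and the thiolase, had log2 differences of 0.11 and 0.01 with overlapping groups. For HADH the difference ran from 0.02 without RNF43 siRNA replicate 3 to 0.23 without control siRNA replicate 3. Its other 2 probe sets had log2 differences of 0.28 and 0.17 with no overlap, and neither passed (adjusted p = 0.0903 and 0.145). The other tested probe set of ACAA2 had a log2 difference of 0.36 with no overlap and did not pass (adjusted p = 0.198).

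HADHA and HADHB, the paired subunits of the mitochondrial trifunctional protein, differed more between replicates than between groups on their brightest probe sets. HADHA read 11.27, 11.24 and 10.56 on the control arrays and 10.81, 11.17 and 10.63 on the others, so replicate 3 was the lowest array in each group. HADHB read 12.11, 12.17 and 12.42 against 12.25, 12.09 and 12.51, and replicate 3 was the highest in each. The log2 differences between groups were -0.15 (95% interval -0.56 to 0.26) for HADHA and 0.05 (-0.20 to 0.30) for HADHB. For HADHA the difference ran from -0.03 to -0.38 when single arrays were left out. Without both arrays numbered 3 it was -0.26 (limma adjusted p = 0.102).

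The electron transfer flavoprotein held the lowest p among the 33 genes. ETFB, its beta subunit, read 12.07, 11.95 and 11.88 on the control arrays and 11.41, 11.42 and 11.38 on the arrays labelled RNF43 siRNA. The second group was tightly bunched (SD 0.02, n = 3, against 0.10 in the controls) and wholly below the first. ETFB fell 1.48-fold (log2 difference -0.57, 95% interval -0.73 to -0.41, limma adjusted p = 0.000378). It passed in all 18 alternatives run, with log2 differences from -0.61 to -0.51 and adjusted p from 7.44e-06 to 0.00712. A single probe set read it, so no other probe set could be set beside it.

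Its partner ETFA, the alpha subunit that forms a dimer with ETFB, read 13.40, 13.53 and 13.45 against 13.34, 13.28 and 13.29. The groups did not overlap, but the log2 difference of -0.15 (SE 0.06) did not pass (adjusted p = 0.101). It passed with quantile normalization and with the replicate block (0.0448 to 0.323 over the alternatives). ETFDH, which hands the electrons on to ubiquinone, had overlapping groups and a log2 difference of -0.08 (95% interval -0.36 to 0.21). Whether ETFB differed more than ETFA was not tested.

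**Figure D2:**
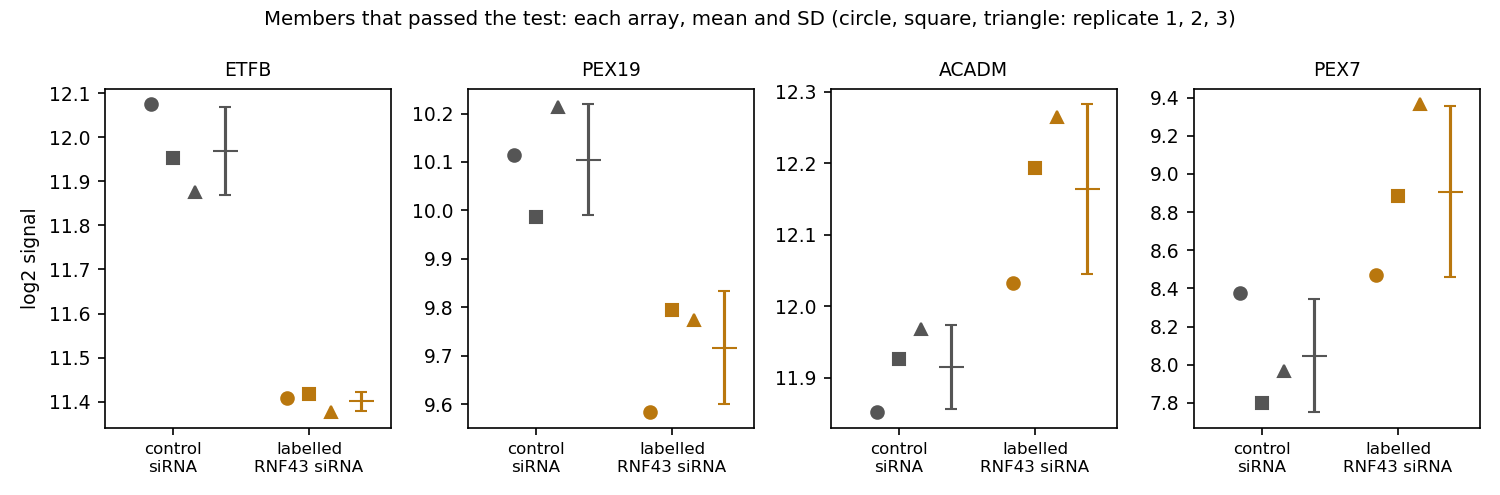
Log2 signal on each array (points, marked by replicate number) with the mean and SD of 3 arrays per group, for the 4 genes that passed the test; each panel has its own axis. In every panel the groups do not overlap, and PEX7 shows the widest spread within the arrays labelled RNF43 siRNA, from 8.47 to 9.36.

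Of 9 tested peroxisomal enzymes and transporters 0 passed in limma, beside 22.6% of all genes, and 0 had an unadjusted p under 0.05. Their median log2 difference was 0.01, with a range of -0.28 to 0.15. HSD17B4, the bifunctional enzyme that acts on very long and branched chains, read 12.42, 12.35 and 12.43 against 12.45, 12.43 and 12.57, groups that were narrowly apart (log2 difference 0.08, adjusted p = 0.405). Overlapping groups were seen for the other 8. EHHADH, the second bifunctional enzyme, sat close to the filter of 5.83 (log2 signals of 5.80 to 6.23) and had the widest SE, 0.29, and ACOX3, an oxidase of branched chains, had a log2 difference of -0.28 that became -0.10 without both arrays numbered 3. CAT, catalase, which removes hydrogen peroxide, had a log2 difference of -0.13 (95% interval -0.32 to 0.05).

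The remaining enzymes of this group had log2 differences from 0.01 to 0.15. PHYH, which starts the breakdown of phytanic acid, had a log2 difference of 0.03 (95% interval -0.17 to 0.23). ACAA1, the peroxisomal thiolase, stood at 0.15 (-0.04 to 0.34), and ECI2, an isomerase, at 0.01 (-0.14 to 0.17). ACOT8, a thioesterase that frees fatty acids from coenzyme A, stood at 0.02 (-0.26 to 0.30).

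Among 9 tested peroxins, 1 rose and 1 fell, or 22.2%, near the 22.6% of all genes. PEX7, the receptor that carries proteins with the second type of peroxisomal targeting signal, among them ACAA1 and PHYH, read 8.38, 7.80 and 7.97 on the control arrays and 8.47, 8.88 and 9.36 on the arrays labelled RNF43 siRNA. The lowest array of the second group lay just above the highest control. The rise of PEX7 was 1.81-fold, with a log2 difference of 0.86, an SE of 0.22 and a limma adjusted p of 0.0172. The call was lost with no intensity trend (adjusted p = 0.0642), without control siRNA replicate 2 (adjusted p = 0.0639), without RNF43 siRNA replicate 2 (0.0591) and without both arrays numbered 3 (0.0691, log2 difference 0.59), within 0.00359 to 0.0691 over the alternatives.

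PEX19, the chaperone that brings membrane proteins to the peroxisome, read 10.12, 9.99 and 10.21 against 9.58, 9.79 and 9.77. All control arrays lay above all others, and the log2 difference of -0.39 (SE 0.10) was a fall of 1.31-fold for PEX19, with an adjusted p of 0.015 in limma. The call was lost without control siRNA replicate 1 (adjusted p = 0.0526), without RNF43 siRNA replicate 1 (0.0606) and when its probe sets were averaged (0.0717, log2 difference -0.26), within 0.00299 to 0.0717 over the alternatives. PEX3, the membrane anchor on which PEX19 docks, had overlapping groups and a log2 difference of -0.09 (95% interval -0.28 to 0.10).

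PEX6, an ATPase that helps pull the import receptor PEX5 back out of the membrane, read 7.02, 7.28 and 7.45 against 6.98, 6.67 and 6.65. The groups were apart, and the log2 difference of -0.48 (SE 0.21) did not pass (adjusted p = 0.124). Its other tested probe set was also lower without overlap, by 2.01-fold (log2 difference -1.01), and missed the threshold (adjusted p = 0.0593). With its probe sets averaged the log2 difference was -0.75 (adjusted p = 0.0635). PEX14, part of the docking complex, read 9.14, 9.12 and 9.09 against 9.03, 8.92 and 9.06, a log2 difference of -0.11 (adjusted p = 0.436) with no overlap. Its other tested probe sets had log2 differences of -0.55 (no overlap, adjusted p = 0.148) and -0.24 (groups overlapped). With the probe sets of PEX14 averaged the log2 difference was -0.30 (adjusted p = 0.255). Overlapping groups were seen for PEX5, which carries most matrix enzymes, for the ubiquitin ligases PEX2 and PEX10, and for PEX11A, which acts in peroxisome division, with log2 differences from -0.12 to 0.13.

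A p that misses the threshold does not show that a gene stayed level, so the intervals were read as well. Of the 29 genes that did not pass, 22 had a 95% interval, on the brightest probe set, lying wholly within 0.5 log2 units (1.41-fold) of 0. The other 7 were ACADS, ACADVL, ACADSB, HADHA, ACOX3, EHHADH and PEX6, whose intervals reached beyond that, with SEs up to 0.29. The intervals do not cover other probe sets of the 22 genes. Among those, log2 differences reached 0.82 for ABCD3, 0.62 for CPT1A, -0.55 for PEX14 and -0.46 for CPT2.

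Several members were read by more than 1 probe set, and these did not always agree. Over all 22660 probe sets that passed the filter, tested singly, 17.7% were called, against 6 of the 61 probe sets of these genes, or 9.84%. In that test ACADM's probe set had an adjusted p of 0.0531. Of 28 probe sets other than the brightest, 17 had the sign of the brightest one and 3 passed. The other probe set of PEX7 read 7.61, 7.94 and 8.20 against 8.90, 8.66 and 8.75, also a rise of 1.81-fold with no overlap (limma adjusted p = 0.00733). PEX19's other probe set had overlapping groups and a log2 difference of -0.12 (adjusted p = 0.58).

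The other 2 probe sets that passed belong to genes whose brightest probe set did not. ABCD3 encodes a peroxisomal transporter of long-chain and branched acyl-CoA. Its brightest probe set read 12.99, 12.93 and 13.06 against 12.90, 12.96 and 13.05, while the other read 9.75, 9.60 and 10.06 against 10.52, 10.49 and 10.87. The first showed overlapping groups (log2 difference -0.02) and the second a rise of 1.77-fold (log2 difference 0.82 with an SE of 0.14, adjusted p = 0.00428 in limma). For CPT2 the other probe set read 9.45, 9.33 and 9.36 against 8.92, 8.73 and 9.11, a fall of 1.37-fold (adjusted p = 0.026), where the groups overlapped on the brightest. The gap between the 2 probe sets, taken array by array, shifted by 0.85 log2 units for ABCD3 and by -0.44 for CPT2, with no overlap between groups in either (exact two-sided permutation p = 0.1 for each, the smallest possible). These gaps were chosen after the values were seen. Which parts of the transcripts the probe sets read was not analysed here.

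**Figure D3:**
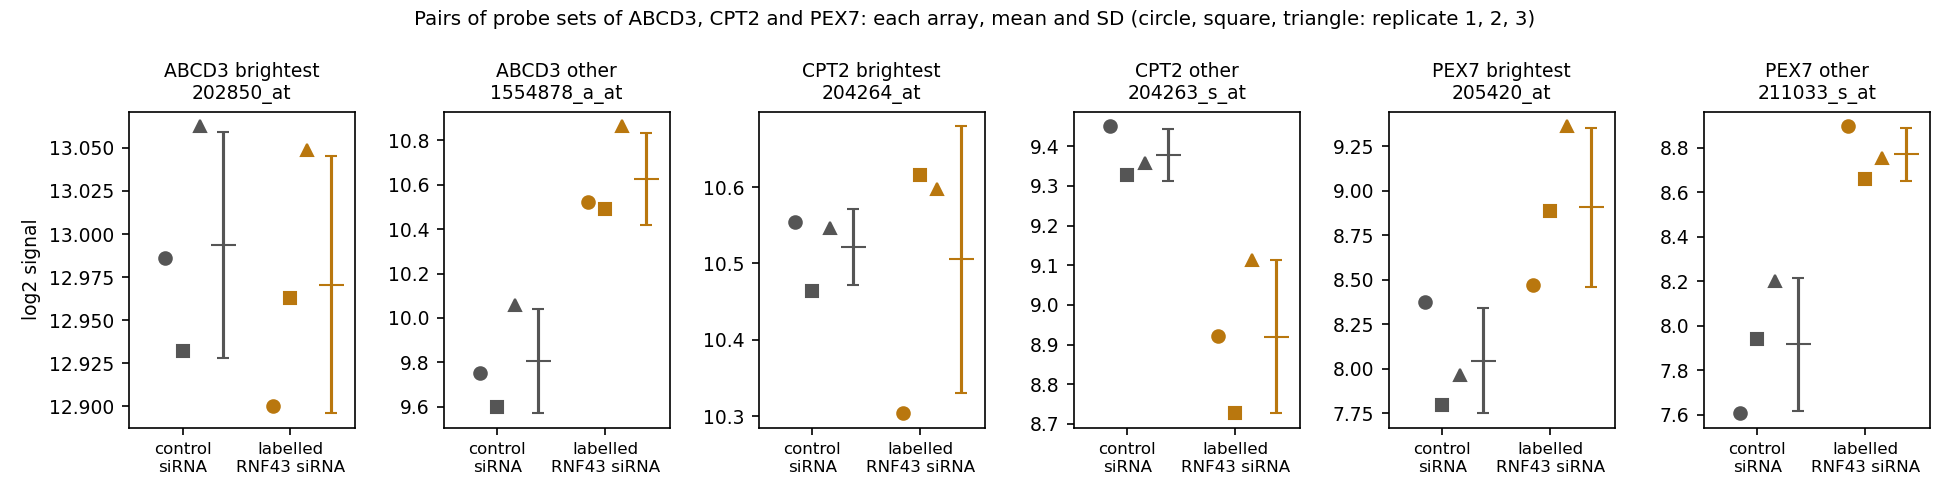
Log2 signal on each array (points, marked by replicate number) with mean and SD of 3 arrays per group, for the brightest and the other tested probe set of ABCD3, CPT2 and PEX7; each panel has its own axis, and levels are not to be compared between panels. Groups overlap on the brightest probe sets of ABCD3 and CPT2 and are apart on their other probe sets, while both PEX7 probe sets are higher on the arrays labelled RNF43 siRNA.

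Arrays numbered 3 moved alike in both groups for several of these genes. For 24 of the 33, replicate 3 deviated from the mean of replicates 1 and 2 in the same direction on the control arrays and on the arrays labelled RNF43 siRNA. Over all genes tested this held for 7811 of 11853, so it was common on these arrays. Across the 33 genes, which share the arrays and are not independent, Pearson's r of the 2 deviations was 0.35, and 0.27 across all 11853 genes tested. On the brightest probe sets HADHA deviated by -0.70 and -0.36 log2 units, ACADVL by -0.40 and -0.29, HADH by 0.34 and 0.30, and HADHB by 0.28 and 0.34. On the other probe sets of HADHA replicate 3 was also the lowest array in each group, on 1 of them only narrowly. On neither other probe set of HADH was replicate 3 the highest array in both groups. PEX7 did not move alike, with -0.12 on the control array and 0.69 on the other.

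**Figure D4:**
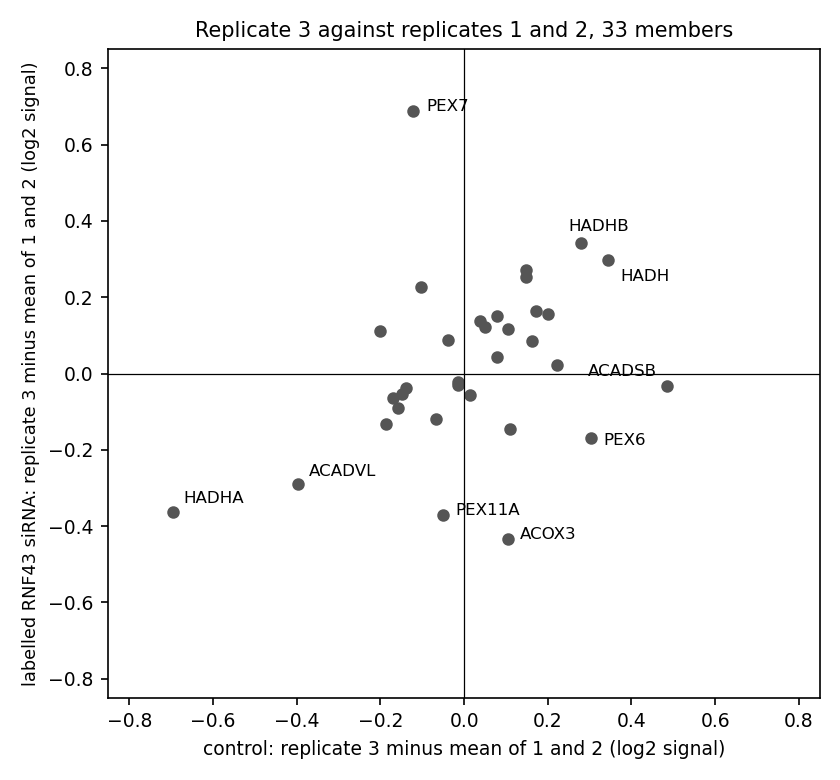
Deviation of replicate 3 from the mean of replicates 1 and 2, in log2 units, on the control arrays (horizontal) and on the arrays labelled RNF43 siRNA (vertical), with 1 point for each of the 33 genes, read by its brightest probe set. HADHA and ACADVL lie low on both axes and HADH and HADHB high on both, while PEX7 is high on the vertical axis only.

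Other genes of the pathway were taken from lists of 73 genes, of which 50 were tested. Of these 6 rose and 7 fell, which is 26% against 22.6% of all genes. The median log2 difference was -0.04. Among 10 other mitochondrial oxidation genes 1 rose and 3 fell, or 40%, beside 22.6% of all genes. SLC25A20, which carries acylcarnitines across the inner membrane between the steps of CPT1A and CPT2, read 10.35, 10.56 and 10.31 on the control arrays and 9.75, 9.72 and 9.92 on the others. It fell 1.53-fold with no overlap (limma adjusted p = 0.00154) and passed in all 18 alternatives. DECR1, which readies polyunsaturated chains, fell 1.19-fold and MLYCD, which removes the CPT1 inhibitor malonyl-CoA, 1.34-fold, while ACAD8, an enzyme of valine breakdown, rose 1.28-fold. These 3 calls were weaker. DECR1 was lost in 6 of 18 alternatives, including those without control siRNA replicate 1 or 2 or without RNF43 siRNA replicate 1 or 2 (adjusted p up to 0.145). ACAD8 was lost in 4 of 17 alternatives, those without 1 of the same 4 arrays (up to 0.0803), and MLYCD in 11 of 18 alternatives (up to 0.769), including those without any 1 array but control siRNA replicate 3.

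Of 21 other peroxisome genes tested, 4 rose and 1 fell, or 23.8%, near the 22.6% of all genes. LONP2, a protease of the peroxisomal matrix, read 10.92, 10.77 and 10.78 against 9.84, 9.72 and 9.91, with the groups far apart (SE of the difference 0.08, limma adjusted p = 3.08e-05). The fall was 2.0-fold on that probe set, and of its 4 tested probe sets 2 passed. The log2 difference was -0.51 when the probe sets were averaged and -0.36 when those ending in _s_at were left out, and the gene passed in all 18 alternatives. PXMP2, a channel protein of the peroxisomal membrane, read 8.98, 9.04 and 8.99 against 9.77, 9.67 and 9.87, a rise of 1.70-fold (adjusted p = 0.000257). NUDT12, a peroxisomal hydrolase of NADH, read 8.18, 7.996 and 8.11 against 8.89, 9.14 and 9.33 and rose 2.03-fold (adjusted p = 0.000432). On their brightest probe sets all 3 genes had groups well apart.

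CROT, a carnitine transferase of peroxisomes, rose 1.76-fold and DECR2, the peroxisomal relative of DECR1, 1.62-fold. The other tested probe set of NUDT12 had a log2 difference of -0.265, and those of CROT 0.08 and -0.05. Groups overlapped on each of these and none passed. When their probe sets were averaged the calls of NUDT12 (log2 difference 0.38, adjusted p = 0.19) and CROT (0.28, 0.314) were lost. Over the alternatives adjusted p ran from 4.25e-05 to 0.19 for NUDT12 and from 1.63e-05 to 0.314 for CROT.

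Of 15 tested regulators of fatty acid oxidation 3 fell and 1 rose, or 26.7% beside 22.6% of all genes. PPARA, the receptor that drives many of these genes in liver, read 8.10, 8.04 and 7.72 against 7.36, 6.75 and 6.54 and fell 2.09-fold. Its log2 difference was -1.07 (SE 0.23) with an adjusted p of 0.00741 in limma. The groups did not overlap. Of 4 tested PPARA probe sets 3 fell, by 1.80-fold to 2.46-fold, and the last had a log2 difference of 0.52 that did not pass. In 1 of 17 alternatives the call was lost, that of averaging all its probe sets, which include 5 below the filter (log2 difference -0.33, adjusted p = 0.505, range over the alternatives 0.000644 to 0.505).

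PPARG, a related receptor best known from fat cells, read 11.27, 11.39 and 11.49 against 10.82, 10.82 and 10.94, a fall of 1.44-fold (adjusted p = 0.00125). PRKAA2, a catalytic subunit of the energy sensor AMPK, read 10.22, 10.37 and 10.26 against 9.78, 9.51 and 9.81 and fell by 0.59 on the log2 scale (adjusted p = 0.00229). Of its 5 tested probe sets 4 fell, and the last had a log2 difference of -0.47 that did not pass. SIRT1, a deacetylase of the coactivator PGC-1alpha, rose 1.33-fold (adjusted p = 0.00939). PPARGC1A, the gene of that coactivator, had a log2 difference of 0.27 (adjusted p = 0.147).

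Of 12 listed PPARA target genes that are not among the 35, 5 were tested. SLC25A20 alone passed, or 20%, near the 22.6% of all genes. ANGPTL4, a lipase inhibitor, had a log2 difference of 0.82 with no overlap and missed the threshold (adjusted p = 0.0508). FABP1, CYP4A11, FGF21, CD36 and VNN1 lay below the filter.

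**Figure D5:**
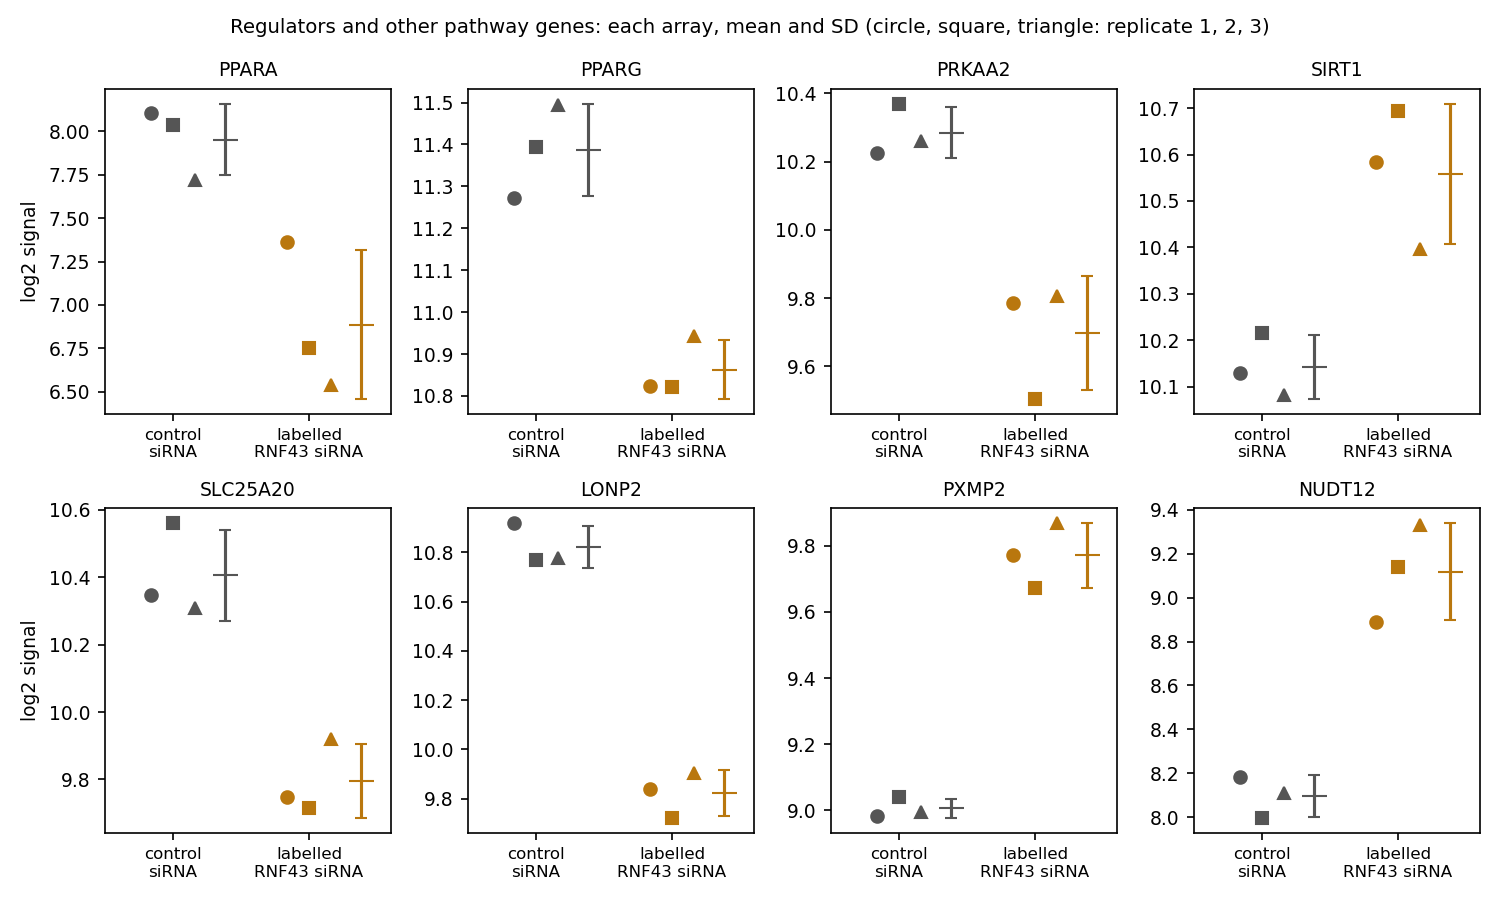
Log2 signal on each array (points, marked by replicate number) with mean and SD of 3 arrays per group, for 4 regulators (upper row) and 4 other pathway genes (lower row) that passed the test; each panel has its own axis. On the brightest probe sets shown, PPARA, PPARG, PRKAA2, SLC25A20 and LONP2 are lower on all arrays labelled RNF43 siRNA than on any control array. SIRT1, PXMP2 and NUDT12 are higher.

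PPARA is known to bind, with a partner receptor, a direct repeat of AGGTCA with 1 base of any kind between the copies. This motif, the only one searched, was looked for on both strands with up to 2 mismatches in RefSeq promoters (GRCh38.p14, 250 bases before to 50 after a start site). It stood in 1 of 40 promoters of 30 of the 35 genes (2.5%), in 5 of 88 promoters of 55 of the other pathway genes (5.68%) and in 1043 of all 35116 promoters (2.97%). None of ETFB, PEX19, ACADM and PEX7 held it in this window. The single match is shown because PPARA itself differed between the groups. Capitals mark the bases that match the repeat.
ACAA2: AGGTgAaAGGgCA

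The ACAA2 match lies at chr18:49813597-49813609 upstream of the start site, on the strand of the gene, which is the minus strand, and has 2 mismatches. ACAA2 did not pass the test (log2 difference 0.01 on its brightest probe set and 0.36 on its other tested one). A match is a description of letters, and no match says only that they are not in this window.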

How the data were processed

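Messenger RNA of 3 control siRNA and 3 RNF43 siRNA samples was hybridised to Affymetrix HG-U133 Plus 2.0 arrays, as the series' design text says. The deposited values are log2 signals, made with MAS5 per the submitters' processing notes. For MAS5, version and target intensity were not given in the sources used. MAS5 makes dim probe sets noisy. Taken as base 2, the trimmed linear means were 497.03 to 497.23 on all arrays, so a shift of all transcripts would be hidden. No detection calls or scan dates were used.

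Values were used as given. Of 54613 probe sets, 41091 named 1 gene in the platform annotation, 1801 several and 11721 none. Each gene was read by its probe set with the highest mean, and tested if that mean was in the upper 50% (log2 above 5.83). The test was limma 3.58.1 (R 4.3.3; intensity trend, two-sided, Benjamini-Hochberg over all 11853 genes, threshold 0.05), after a test on simulated data. The pathway and marker lists and the members were chosen with earlier results of these data known. Values of an array are given for members that passed or whose groups did not overlap, for the 6 other pathway genes with the smallest p and, beyond that rule, for PPARA, CPT2, HADHA, HADHB, ACADVL and the other probe sets of PEX7, ABCD3 and CPT2. Promoter sequences are from RefSeq. Peroxisomal targeting signals in proteins were planned and not analysed here. Tried as alternatives were other normalizations, a constant added to the signal, other filters, probe sets and variance models, a replicate block, other thresholds and fewer arrays. The alternative without both arrays numbered 3 was chosen after the data were seen.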

Additional observations from a re-analysis of the deposited data

How the results depend on the processing

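The main counts were 2 genes higher and 2 lower of the 33 tested, 6 and 7 of the other pathway genes, and 2684 of all genes. Shares in brackets are of all genes called in that setting, in either direction, and the main share was 22.6%. Genes higher numbered 1 with no filter on low values (11.7%). They numbered 0 with no intensity trend (18.1%), without both arrays numbered 3 (25.2%) and at adjusted p under 0.01 (11.6%). Without single arrays they numbered 0 to 2. Genes lower numbered 1 with the mean of probe sets (13%) and at adjusted p under 0.01 (11.6%). They numbered 4 with the replicate block (33%), and 1 to 3 without single arrays (14.7% to 22.4%). Other pathway genes higher numbered 2 when _x_at and _s_at probe sets were left out (22.2%) and 10 with the replicate block (33%). All genes called numbered 1536 with the mean of probe sets, 1370 at adjusted p under 0.01, and 1739 to 2653 without single arrays. The RNF43 log2 difference was 0.48 without both arrays numbered 3. ABCD3, not called on its brightest probe set, had a log2 difference of 0.40 and passed with the mean of probe sets. Of the 29 genes not called, 12 changed sign in at least 1 alternative, and ACADVL, ETFA and ABCD3 passed in some. The median of the 33 genes stayed negative in all alternatives (-0.09 to -0.03 without single arrays).

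The replicate numbers were not taken to pair the arrays, since deviations of same-numbered arrays correlated at 0.162, 0.0772 and 0.268, not all over 0.1. Control replicates 1 and 3 correlated best with their own number, and control replicate 2 about as well with RNF43 siRNA replicate 1 (0.0859). Seen from the other side, each array labelled RNF43 siRNA correlated best with the control array of its own number (0.162, 0.0772 and 0.268). Whether same-numbered arrays share a source was not tested. With the replicate block 33% of all genes were called, and ACADVL and ETFA joined the members called. With 3 arrays per group, the number of arrays limits the precision, and EHHADH and ACADL lay near or below the filter.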
